A study of Mus musculus with 24 samples.

Results

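Among the 24273 genes measured by RNA sequencing in mouse bone marrow-derived macrophages (BMDMs), 51 were lower at every time examined in the libraries labelled FosKO than in those labelled LysM. The genes were chosen by their normalised levels. A gene belonged to this group when the mean of the 3 libraries labelled FosKO lay at least 0.8 below the mean of the 3 LysM libraries, on the log2 scale, at each of 4 times, and when its mean in unstimulated LysM libraries was at least 5. Fosl1, Fosl2, Dusp5, Cav1 and Cav2 were left out by name. Of 57 genes with the difference at all 4 times, 5 had a mean under 5 and 1, Cav1, was left out by name alone. Because the difference between genotypes chose the members, it is described here and not tested, whereas the change with lipopolysaccharide (LPS) within a genotype was tested.

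The macrophages had been differentiated from bone marrow cells in L-cell conditioned medium. Cells of C57BL/6 background carried LysM-Cre, a Cre recombinase placed at the lysozyme locus Lyz2 and active in myeloid cells, and were either LysM controls or FosKO, with both Fos alleles floxed, to ask which genes depend on FOS. In the design text the controls are LysM-Cre, but elsewhere the study describes Fos FL/+ LysM-Cre controls, and whether controls carried 1 floxed allele is not settled here. Cells were left unstimulated (0 h) or received 100 ng/ml LPS, a bacterial ligand of TLR4, for 0.5, 1 or 2 h, with 3 libraries in each of 8 groups and 24 in all. The methods call the libraries biological replicates but do not say how many animals gave them, and the animals' ages were not given for this experiment. Values are the authors' normalised levels on a log2 scale, and the depth of each library is unknown.

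FOS is an inducible transcription factor that pairs with JUN proteins to form AP-1, a dimer that binds the sequence TGANTCA. LPS raises Fos within minutes in macrophages through ERK signalling, and FOS protein then acts on genes with AP-1 sites in promoters and enhancers.

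Fos itself went against the label in this table. At 0 h Fos stood at 11.17, 11.07 and 11.10 in LysM libraries and at 12.72, 12.41 and 12.67 in those labelled FosKO, so all 3 of the latter were higher. At 0.5 h the order was the other way, with 13.43, 13.57 and 13.56 against 12.81, 12.64 and 12.79, and at 1 and 2 h the libraries labelled FosKO were again higher. With LPS, Fos rose in LysM at 0.5 h by 2.41 ± 0.09 (SE; limma, adjusted p = 1.61e-14), and in libraries labelled FosKO its change was 0.15 ± 0.09 (SE; limma, adjusted p = 0.396). Fosl1, which encodes the AP-1 subunit FRA1, was lower in libraries labelled FosKO at all 4 times, with differences of -0.90, -1.12, -1.64 and -0.85, each called in limma. It was left out of the rule by name, and its mean of 4.52 in unstimulated LysM libraries was also under the limit. Which exons the Fos reads came from was not tested, and directions are given by the labels. Lyz2, the gene that holds the Cre, was at 10.90, 11.04 and 10.87 in LysM libraries and 16.08, 16.12 and 16.12 in those labelled FosKO at 0 h. It differed by 5.17, 4.89, 4.98 and 5.06 at the 4 times, with no overlap. The label and the level of Lyz2 thus went together in every library. Whether what sets Lyz2 apart has a part in the members' differences was not tested. A ribosomal transcript, Rn18s-rs5, was at 16.65 to 17.0 in 5 libraries of the 0.5 and 1 h groups (2 labelled FosKO, 3 LysM) and at 18.57 to 19.39 in the other 19. With those 5 libraries left out the rule found 54 genes, among them the 51 members, but LysM at 1 h was then a single library. All 12 macrophage markers checked were expressed, with a summed level of 17.45 to 17.73 in LysM libraries and 17.45 to 17.84 in those labelled FosKO. Single markers differed between genotypes in both directions, with 6, 6, 6 and 7 called higher and 4, 1, 2 and 0 called lower in libraries labelled FosKO at 0, 0.5, 1 and 2 h in limma. Of all tested genes, 19.5%, 21.2%, 18% and 24.4% were called higher at these times and 15.9%, 19.7%, 15.9% and 20.3% lower. Over the 12 macrophage markers the difference at 0 h ran from -0.22 in Cd14 to 0.98 in Aif1, with Mertk at 0.97 and Fcgr1 at 0.65.

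Of the 51 members, 45 are annotated as protein coding and 6 as processed pseudogenes, which are reverse-transcribed copies of other genes' mRNA. Across the members the median difference between genotypes was -1.24 before LPS, then -1.34, -1.30 and -1.09 at 0.5, 1 and 2 h, beside medians over all 13901 tested genes of 0.0025, -0.0032, 0.002 and 0.004. For the 45 protein-coding members alone it was -1.22, -1.33, -1.29 and -1.08. Averaged over the 4 times, 10 members were lower by 2 or more on the log2 scale, 35 by 1 to 2 and 6 by less than 1, with a median of -1.24, which is 2.36-fold. In all 51, the highest library labelled FosKO lay below the lowest LysM library at every time, the narrowest gap being 0.26 for Cd163 at 1 h. Over all tested genes this separation occurred in 20.5%, 24.9%, 21.3% and 25.1% at the 4 times, and a difference of at least 0.8 in this direction in 0.928%, 1.37%, 1.07% and 1.04%. It was found at all 4 times in 0.41% of them. Conversely, 127 genes at the same minimum level were at least 0.8 higher at every time. In bulk RNA, fewer cells of a type and less RNA per cell cannot be told apart.

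The difference was of similar size at the 4 times in most members. Its range over the 4 times had a median of 0.26 and was below 0.5 in 43 of 51. Where it varied most was Cspg4, from -2.88 at 0.5 h to -2.09 at 2 h. In 31 members the smallest of the 4 differences was the one at 2 h. At the edge of the rule, the smallest of the 4 differences was -0.80 in Plxdc1, -0.81 in Lyzl4 and -0.81 in Cd163, which are inside, and -0.80 in Cass4, -0.79 in Slc24a3 and -0.79 in Wdfy1, which are outside.

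**Figure D1:**
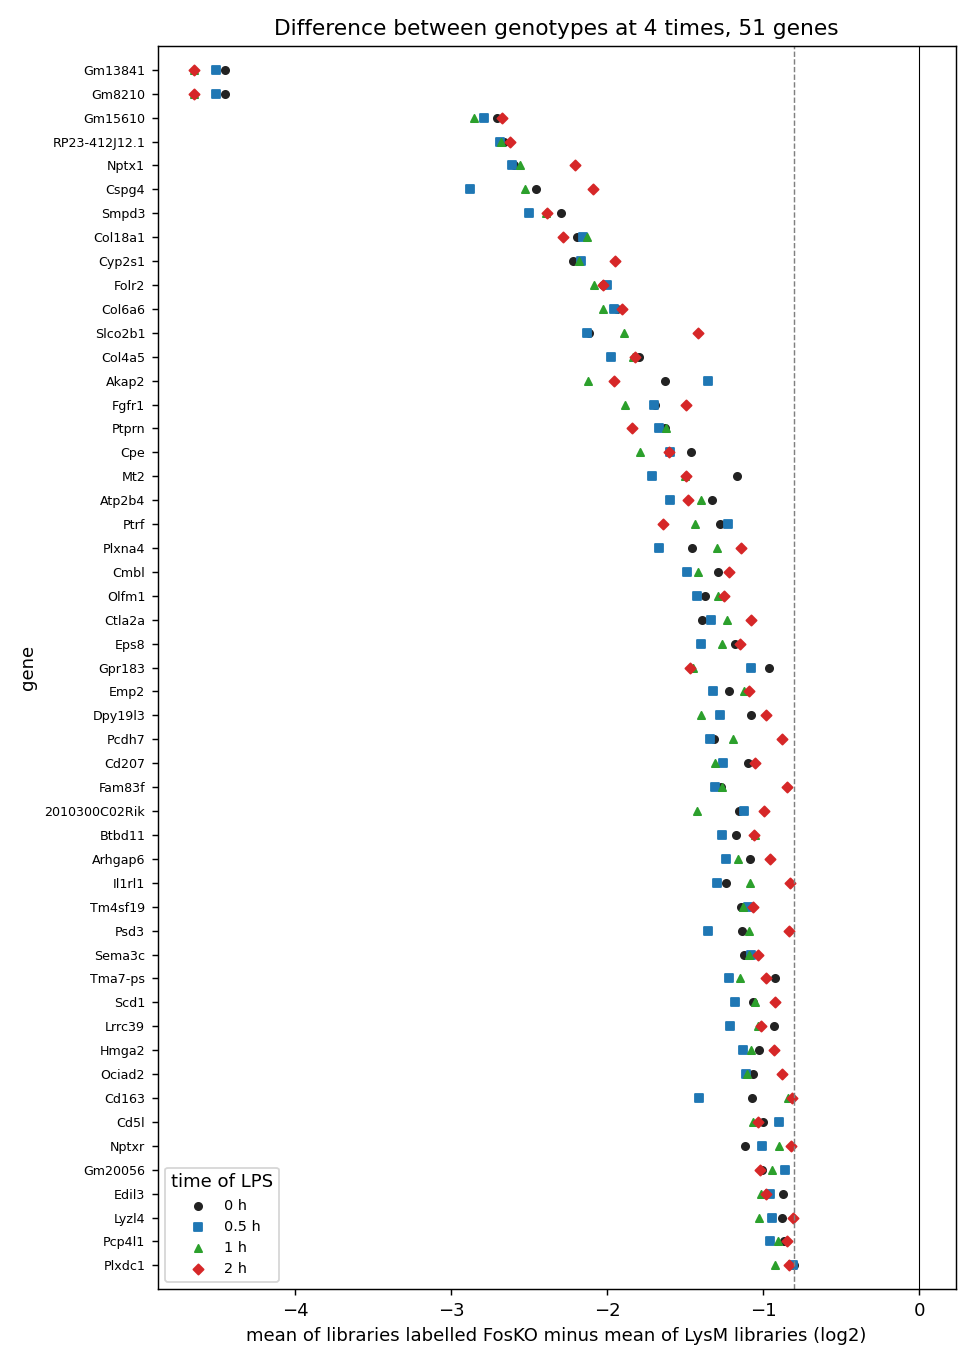
Mean of the 3 libraries labelled FosKO minus mean of the 3 LysM libraries, on the log2 scale, for each of the 51 genes (rows) at 0, 0.5, 1 and 2 h of LPS (symbols), ordered by the mean of the 4. The dashed line marks the limit of -0.8. Gm13841 and Gm8210 stand apart at about -4.5, and most other genes lie between -2.5 and -0.8.

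The members with the largest differences were copies of housekeeping genes, and their sequences are shown because reads of this kind can fit several places in the genome. Gm13841 (chr5:115801677-115802159, minus strand, build GRCm38) and Gm8210 (chr1:43189156-43189638, plus strand) are 483 bases long, identical to each other, and 99.4% identical to the coding sequence of Rpl29, a protein of the large ribosomal subunit. Both differ from Rpl29 at 3 positions counted from the first base of its start codon, C72A, C300T and T423C, with the Rpl29 base given first. Gm15610 (chr5:8971948-8972142, plus strand), RP23-412J12.1 (chr7:128314784-128340805, plus strand, Gm6916 in GENCODE) and Tma7-ps (chr1:171711088-171711282, plus strand) each hold a 195-base copy of the coding sequence of Tma7, a small translation-associated protein. From Tma7, Gm15610 differs by C10T, A96T, A110G and A123G, RP23-412J12.1 by C34T, C69T, A123G and C155T, and Tma7-ps by A123G and C141T. Below, from the GENCODE transcripts, are bases 58 to 357 of Gm13841 and the whole of the Tma7 coding sequence with its 3 copies, with capitals for the bases that differ from the parent gene.
Gm13841: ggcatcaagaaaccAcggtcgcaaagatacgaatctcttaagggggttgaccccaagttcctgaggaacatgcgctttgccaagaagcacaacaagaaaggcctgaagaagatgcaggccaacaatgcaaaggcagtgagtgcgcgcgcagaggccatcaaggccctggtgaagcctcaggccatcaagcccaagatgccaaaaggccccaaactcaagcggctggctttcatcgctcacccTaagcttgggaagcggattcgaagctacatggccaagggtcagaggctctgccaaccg
Tma7: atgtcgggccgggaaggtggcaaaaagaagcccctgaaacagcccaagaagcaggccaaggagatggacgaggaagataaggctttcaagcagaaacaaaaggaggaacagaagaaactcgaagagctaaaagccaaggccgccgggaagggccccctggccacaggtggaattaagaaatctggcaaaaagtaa
Gm15610: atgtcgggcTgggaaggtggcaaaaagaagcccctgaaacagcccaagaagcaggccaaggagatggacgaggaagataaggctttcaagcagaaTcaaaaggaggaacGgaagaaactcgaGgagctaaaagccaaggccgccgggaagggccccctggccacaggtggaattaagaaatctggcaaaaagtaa
RP23-412J12.1: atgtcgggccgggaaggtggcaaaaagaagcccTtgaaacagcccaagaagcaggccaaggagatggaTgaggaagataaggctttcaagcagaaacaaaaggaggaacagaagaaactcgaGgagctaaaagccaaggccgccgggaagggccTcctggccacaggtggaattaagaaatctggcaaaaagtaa
Tma7-ps: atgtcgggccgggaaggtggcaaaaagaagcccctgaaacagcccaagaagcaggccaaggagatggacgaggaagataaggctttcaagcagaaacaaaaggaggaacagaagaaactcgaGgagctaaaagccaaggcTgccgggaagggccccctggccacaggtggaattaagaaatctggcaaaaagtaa

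Gm13841 was at 9.38, 9.40 and 9.36 before LPS, 9.37, 9.38 and 9.64 after 0.5 h, 9.58, 9.78 and 9.79 after 1 h, and 9.63, 9.71 and 9.63 after 2 h in LysM libraries. In libraries labelled FosKO it was at 4.94, 4.93 and 4.92 before LPS, 4.86, 4.91 and 5.10 by 0.5 h, 5.19, 5.04 and 4.98 by 1 h, and 4.98, 4.99 and 5.07 by 2 h. No library of either genotype came within 4 log2 units of the other genotype, and the differences were -4.45, -4.51, -4.65 and -4.64. Gm8210 held the same value as Gm13841 in every library, so both rows were 1 measurement. Rpl29 moved the opposite way, at 10.62, 10.59 and 10.62 before LPS in LysM and 12.05, 12.03 and 11.99 in libraries labelled FosKO, which differed by 1.42 ± 0.07 (SE; limma, adjusted p = 2.82e-12), and by 1.62, 1.74 and 1.54 at the later times. When the linear values of Rpl29 and its near-identical pseudogene copies were added together, 24 genes in the table, the sum differed by 0.55, 0.63, 0.60 and 0.60 between genotypes at the 4 times. Reads can be shared among these near-identical sequences, so the levels of Gm13841 and Gm8210 are uncertain, and the part of read assignment in their difference was not tested. In the 3 LysM libraries with low Rn18s-rs5, Gm13841 was at 9.64, 9.78 and 9.79, in the upper part of its range there. In the libraries labelled FosKO with low Rn18s-rs5 it was at 4.86 and 5.19, its lowest and highest values with that label.

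Gm15610 showed 6.29, 6.36 and 6.17 before LPS, 6.58, 6.27 and 6.28 after 0.5 h, 6.49, 6.38 and 6.40 after 1 h, and 6.49, 6.31 and 6.32 after 2 h in LysM libraries. In those labelled FosKO it showed 3.58, 3.57 and 3.56 before LPS, 3.50, 3.63 and 3.62 by 0.5 h, 3.54, 3.61 and 3.56 by 1 h, and 3.62, 3.80 and 3.68 by 2 h. The groups were separated by more than 2 log2 units throughout, and the differences were -2.70, -2.79, -2.85 and -2.67. RP23-412J12.1 was at 6.37, 6.40 and 6.40 before LPS, 6.27, 6.45 and 6.15 after 0.5 h, 6.34, 6.31 and 6.25 after 1 h, and 6.17, 6.41 and 6.54 after 2 h in LysM libraries. Those labelled FosKO gave 3.84, 3.67 and 3.66 before LPS, 3.60, 3.57 and 3.64 by 0.5 h, 3.64, 3.55 and 3.67 by 1 h, and 3.81, 3.82 and 3.61 by 2 h. Its differences were -2.66, -2.68, -2.68 and -2.62, again with no overlap. Tma7-ps differed less, by -0.92, -1.22, -1.15 and -0.98. The parent gene Tma7 was slightly higher in libraries labelled FosKO, by 0.18, 0.22, 0.15 and 0.22. Summed over Tma7 and its copies, 6 genes in the table, the level differed by -0.01, 0.01, -0.05 and 0.02 at the 4 times, with an SD of 0.02 to 0.05 within LysM groups. Reads can be shared here too, and the 3 copies' own levels are uncertain. The sixth pseudogene, Gm20056, is 97.8% identical to Chp1 over its length and begins 308 bases beyond the end of Tm4sf19 on the same strand. It differed by -1.01, -0.86, -0.94 and -1.02, Tm4sf19 by -1.14, -1.10, -1.13 and -1.07 and Chp1 by -0.19, -0.13, -0.14 and -0.07.

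**Figure D2:**
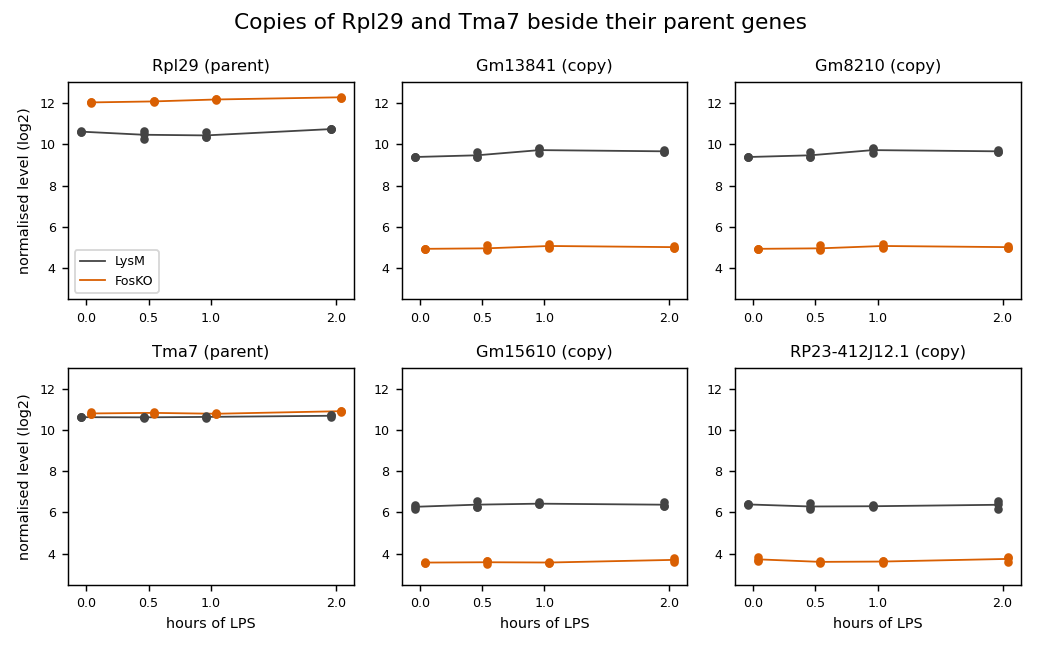
Normalised level (log2) of Rpl29 and Tma7 (left) and of 4 pseudogene copies (middle, right) against hours of LPS, with 1 point per library, lines through group means, LysM in grey and libraries labelled FosKO in orange. Rpl29 is higher in orange by 1.42 to 1.74, while Gm13841 and Gm8210 are lower by 4.45 to 4.65.

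Of the protein-coding members, Nptx1 (chr11:119538719-119547753, minus strand) had the largest mean difference, 5.62-fold. It encodes a secreted pentraxin known from synapses, where it gathers glutamate receptors. In LysM libraries Nptx1 was at 9.20, 8.88 and 9.15 before LPS, 9.02, 9.02 and 9.19 after 0.5 h, 9.11, 9.03 and 9.14 after 1 h, and 8.81, 8.84 and 8.82 after 2 h. In those labelled FosKO it was at 6.58, 6.42 and 6.44 before LPS, 6.50, 6.42 and 6.49 by 0.5 h, 6.41, 6.64 and 6.56 by 1 h, and 6.59, 6.60 and 6.65 by 2 h. The genotypes were more than 2 log2 units apart at every time and did not overlap, with differences of -2.60, -2.61, -2.56 and -2.21. Its membrane-bound partner Nptxr, also a member, differed by -1.12, -1.01, -0.90 and -0.82. Ptx3, the other tested gene of the pentraxin list and a product of activated macrophages, differed by 0.01 at 0 h and was not called (limma, adjusted p = 0.975).

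Others of the group are best known from neurons or secretory cells. Ptprn, a protein of dense-core vesicles, differed by -1.63, -1.67, -1.62 and -1.84. Cpe, the carboxypeptidase that trims prohormones, differed by -1.46, -1.60, -1.79 and -1.60. Plxna4, a receptor for semaphorins, and Sema3c, a secreted semaphorin, had means of -1.39 and -1.08 over the 4 times. Olfm1, a secreted olfactomedin, stood at -1.34 by the same measure, and Pcp4l1, a relative of the calmodulin-binding protein PCP4, at -0.89. Over the 8 genes of this set the means ran from -2.49 to -0.89.

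Cspg4 (chr9:56865033-56899870, plus strand) encodes NG2, a membrane proteoglycan known from pericytes and glial precursors. In LysM libraries it was at 7.74, 7.88 and 7.91 before LPS, 7.82, 8.15 and 8.05 after 0.5 h, 7.93, 7.65 and 7.69 after 1 h, and 7.28, 7.24 and 7.29 after 2 h. In those labelled FosKO the values were 5.61, 5.04 and 5.50 before LPS, 4.86, 5.34 and 5.17 by 0.5 h, 5.04, 5.19 and 5.45 by 1 h, and 5.30, 5.25 and 4.99 by 2 h. All LysM libraries exceeded 7 and all libraries labelled FosKO were below 6, and the differences were -2.46, -2.88, -2.53 and -2.09. The pericyte markers Rgs5, Abcc9 and Notch3 were at or below 0 on the log2 scale, as were the fibroblast markers Dcn, Pdgfra and Thy1. Pdgfrb, the 1 pericyte marker that passed the filter and one that fibroblasts share, was not called between genotypes, and the summed pericyte list was at 3.55 to 5.66 in LysM libraries and 3.52 to 5.80 in those labelled FosKO. The summed fibroblast list was at 6.62 to 8.22 in LysM libraries and 7.06 to 8.33 in those labelled FosKO.

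Collagen chains were also members. Col18a1, a basement membrane collagen whose end fragment is endostatin, was at 11.45, 11.43 and 11.34 before LPS, 11.41, 11.45 and 11.43 after 0.5 h, 11.56, 11.54 and 11.55 after 1 h, and 12.11, 12.15 and 12.08 after 2 h in LysM libraries. Those labelled FosKO held 9.31, 9.11 and 9.22 before LPS, 9.37, 9.31 and 9.15 by 0.5 h, 9.42, 9.30 and 9.55 by 1 h, and 9.82, 9.76 and 9.93 by 2 h. The replicates lay close together and the genotypes, which did not overlap, differed by -2.19, -2.15, -2.13 and -2.28. Col6a6, a chain of the microfibrillar collagen VI, was at 5.25, 4.97 and 4.80 before LPS, 5.07, 4.92 and 4.91 after 0.5 h, 5.40, 4.99 and 4.94 after 1 h, and 5.24, 4.72 and 4.98 after 2 h in LysM libraries. In libraries labelled FosKO it lay at 3.05, 3.13 and 3.03 before LPS, 2.99, 3.02 and 3.02 by 0.5 h, 3.02, 3.10 and 3.13 by 1 h, and 3.08, 3.09 and 3.06 by 2 h. Differences of -1.93, -1.95, -2.03 and -1.91 separated the genotypes at each time. Over all genes of the table the median SD within groups was 0.16 at levels of 3 to 4, 0.10 at 0 to 2 and 0.01 below 0. Values near the floor thus varied little, and whether the authors' normalisation compressed the differences of low members such as Col6a6 and Gm15610 was not tested. Col4a5, a chain of basement membrane collagen IV, differed by -1.80, -1.98, -1.83 and -1.82.

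The remaining surface members were Pcdh7, a protocadherin adhesion protein (mean of the 4 differences -1.18), Emp2, a tetraspan membrane protein (-1.19), Edil3, a secreted ligand of integrins (-0.96), and Plxdc1 (-0.84). Among 15 other tested genes of matrix and basement membrane, 4 were called lower at 0 h (15.9% of all tested genes) and 4 higher (19.5%) in limma. Col4a1 (-0.72 at 0 h), Nid2 (-0.79), Gpc1 (-0.56) and Sdc2 (-0.48) were lower. Fn1 (0.86), Col15a1 (0.58), Agrn (0.35) and Sdc3 (0.26) were higher, so the list did not move in 1 direction.

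Smpd3 (chr8:106252548-106337988, minus strand) encodes neutral sphingomyelinase, which releases ceramide from sphingomyelin. LysM libraries held Smpd3 at 7.39, 7.46 and 7.63 before LPS, 7.44, 7.65 and 7.55 after 0.5 h, 7.71, 7.70 and 7.51 after 1 h, and 7.39, 7.42 and 7.18 after 2 h. Libraries labelled FosKO held it at 5.39, 5.11 and 5.10 before LPS, 5.01, 5.15 and 4.99 by 0.5 h, 5.29, 5.27 and 5.20 by 1 h, and 4.80, 4.96 and 5.08 by 2 h. No values overlapped, and the differences were -2.29, -2.50, -2.39 and -2.38, or 5.25-fold on average. Of 23 other tested genes of sphingomyelin and ceramide metabolism, 6 were called lower at 0 h and 9 higher (15.9% and 19.5% of all tested genes). Cers4, a ceramide synthase, was the lowest at -0.90, and Asah2 (0.74), a ceramidase, and Sgms2 (0.61), a sphingomyelin synthase, were the highest.

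Several members handle drugs, anions, lipids or metals. Cyp2s1, a cytochrome P450, was at 7.42, 7.85 and 7.78 before LPS, 7.53, 7.79 and 7.76 after 0.5 h, 7.40, 7.90 and 7.73 after 1 h, and 6.98, 7.48 and 7.16 after 2 h in LysM libraries. With the label FosKO it was at 5.39, 5.24 and 5.75 before LPS, 5.53, 5.45 and 5.60 by 0.5 h, 5.38, 5.25 and 5.87 by 1 h, and 5.29, 5.20 and 5.29 by 2 h. The replicates spread more widely than those of Col18a1, but the groups did not overlap, with differences of -2.22, -2.17, -2.18 and -1.95. Slco2b1, an uptake transporter for organic anions that is also found on tissue macrophages, was at 7.40, 7.32 and 7.37 before LPS, 7.29, 7.23 and 7.35 after 0.5 h, 7.15, 7.01 and 7.20 after 1 h, and 6.55, 6.35 and 6.59 after 2 h in LysM libraries. The libraries labelled FosKO gave 5.59, 5.10 and 5.06 before LPS, 5.23, 5.10 and 5.15 by 0.5 h, 5.42, 5.14 and 5.13 by 1 h, and 5.46, 4.93 and 4.83 by 2 h. Its difference shrank from -2.11 at 0 h to -1.42 at 2 h, with no overlap at either. Scd1, which makes monounsaturated fatty acids, had a mean difference of -1.05, whereas its paralogue Scd2, to which 1 of its transcripts is 95.5% identical, differed by -0.05 at 0 h. Cmbl, a hydrolase, had a mean of -1.35. Atp2b4, a plasma membrane calcium pump, and Mt2, a metal-binding metallothionein, had means of -1.45 and -1.47.

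Another set of 8 was grouped as macrophage and immune genes. Folr2, the folate receptor of tissue-resident macrophages, was at 11.29, 11.18 and 11.27 before LPS, 11.19, 11.11 and 11.25 after 0.5 h, 11.30, 11.20 and 11.38 after 1 h, and 11.42, 11.26 and 11.46 after 2 h in LysM libraries. In those labelled FosKO it was at 9.37, 9.09 and 9.19 before LPS, 9.26, 9.03 and 9.24 by 0.5 h, 9.35, 9.0 and 9.28 by 1 h, and 9.49, 9.24 and 9.34 by 2 h. The differences of -2.03, -2.0, -2.08 and -2.02 were nearly the same at all times, and no library overlapped. Cd163, the scavenger receptor for haemoglobin, differed by -1.07, -1.41, -0.84 and -0.81, and Cd5l, a secreted scavenger protein of macrophages, by -1.0, -0.90, -1.07 and -1.04. Gpr183, a receptor for oxysterols that guides immune cells, differed by -0.96, -1.08, -1.45 and -1.47. Il1rl1, the receptor for IL-33, had a mean of -1.11. Cd207, the lectin langerin, had -1.18, Ctla2a, an inhibitor of cysteine proteases, -1.26, and Lyzl4, a lysozyme-like protein, -0.91. Ctla2b, whose transcript is 95.4% identical to that of Ctla2a, differed by -0.05 at 0 h.

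Ly6g and Elane, which define neutrophils, were at or below 0, but 4 other neutrophil genes passed the filter and 4, 3, 4 and 4 of them were called lower in libraries labelled FosKO at 0, 0.5, 1 and 2 h, and 0 higher (15.9%, 19.7%, 15.9% and 20.3% of all tested genes were lower). S100a9 differed by -0.81 and Ngp by -0.96. The summed neutrophil list was at 6.31 to 7.43 in LysM libraries and 5.77 to 6.47 in those labelled FosKO. Kit, the 1 tested gene of the mast cell and basophil list, differed by -0.43, -0.53, -0.53 and -0.27 and was called at the first 3 times, while Cpa3 was below 0. Of 6 tested osteoclast genes, 2, 2, 3 and 4 were called lower at the 4 times, against the same shares, with 1 higher at each (19.5%, 21.2%, 18% and 24.4% of all tested genes were higher), and the summed list was at 11.46 to 11.76 in LysM libraries and 11.24 to 11.66 in those labelled FosKO. In the endothelial list 3, 1, 2 and 3 of 4 tested genes were called higher at the 4 times, against the shares just given, and 0 lower, with a summed level of at most 11.62 in LysM libraries and at least 11.63 in those labelled FosKO, while Tek, Tie1 and Emcn lay near or below 0. Whether these genes have a part in the lower level of any member was not tested.

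The last set held 14 genes of scaffolding, signalling and other roles. Ptrf, called Cavin1 in GENCODE, coats caveolae and differed by -1.27, -1.22, -1.44 and -1.64. Of the 4 other tested genes of caveolae, 2 were called lower at 0 h (15.9% of all tested genes), the caveolins Cav1 (-0.95) and Cav2 (-0.58), both left out of the rule by name. Cav2 did not reach -0.8 at any time. Ehd2 (-0.35, limma adjusted p = 0.0727) and Pacsin2 (-0.0029, 0.941) were not called. Akap2, an anchor for protein kinase A, differed by -1.63, -1.35, -2.12 and -1.96, and its transcript is contained in that of the overlapping gene Pakap, so the counts of both are uncertain. Fgfr1, a receptor for fibroblast growth factors, differed by -1.70, -1.70, -1.89 and -1.49. Eps8, which caps actin filaments, and Arhgap6 had means of -1.25 and -1.11. Psd3, an exchange factor for ARF6, had -1.11, and Hmga2, an architectural chromatin protein of fetal and dividing cells, -1.04. Dpy19l3, which adds mannose to tryptophan in secreted proteins, had -1.18. The others were Btbd11 (-1.14), Fam83f (-1.17), 2010300C02Rik (-1.17), Tm4sf19 (-1.11), Ociad2 (-1.04) and Lrrc39 (-1.05).

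**Figure D3:**
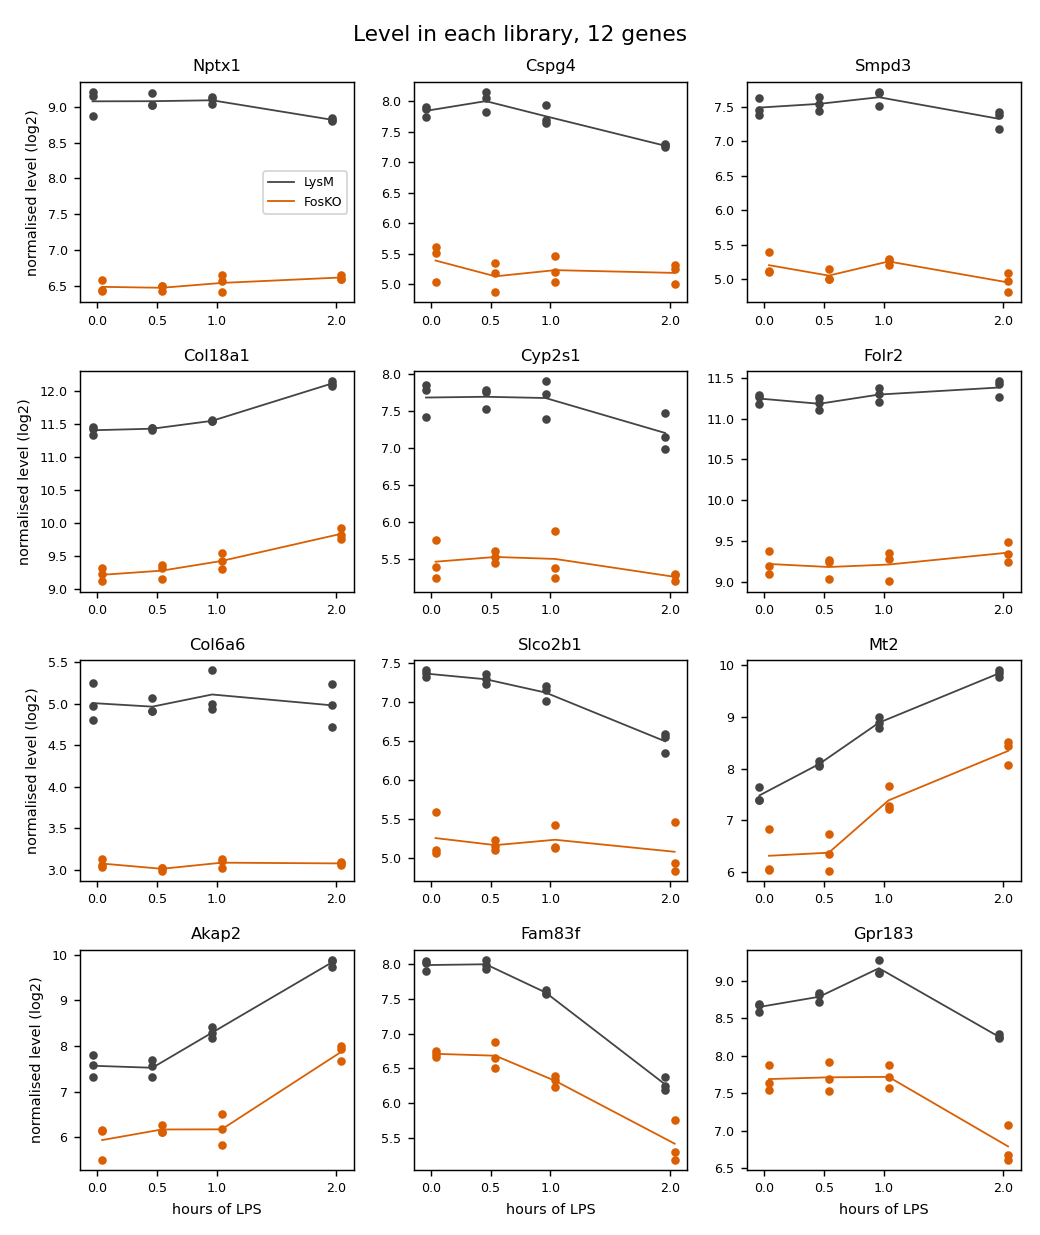
Normalised level (log2) of 12 members against hours of LPS, with 1 point per library, lines through group means, LysM in grey and libraries labelled FosKO in orange. Each panel has its own vertical scale. In no panel do the colours overlap, and Mt2 and Akap2 rise and Fam83f falls in both.

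The members lay on 17 chromosomes, with 7 on chromosome 1 and none on chromosome 12, which holds Fos. Hmga2, on chromosome 10, was the nearest to Lyz2, with 3078953 bases between them. Only 3 pairs of members lay within 1 Mb of each other, Tm4sf19 with Gm20056, Tma7-ps with Pcp4l1, and Fam83f with Nptxr.

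Promoter windows were examined for AP-1 sites, since Fos encodes an AP-1 subunit. Windows of 300 bases, from 250 before to 50 after an annotated start, were taken from RefSeq (GRCm38.p6) and matched for 34 of 51 members, which had 52 windows. The motif TGANTCA, the same read on either strand, was present in 6 of the 34 members (17.6%), beside 8.97% of all 27025 genes with a window. By window it was in 7 of 52 (13.5%), beside 7.81% of 32851. The overlapping windows of Ctla2a held the same site, which this count by window includes more than once. Nptx1 and Smpd3 were among the members with no window. The related site TGACGTCA, which does not contain TGANTCA, was in none of the members' windows and in 1.79% of all, and the CArG box bound by serum response factor was in 1 member, Gpr183, and in 1.63% of all windows. A match is a description of the sequence and not evidence of binding, and no test was made on these few windows. The 6 members with TGANTCA were Folr2, Slco2b1, Mt2, Ctla2a, Cd207 and Btbd11. Those of Folr2, Slco2b1 and Mt2, whose levels are given in full, are printed here on the gene's strand with the motif in capitals. They lie at chr7:101845282-101845581, minus strand, for Folr2, chr7:99711291-99711590, minus strand, for Slco2b1, and chr8:94172368-94172667, plus strand, for Mt2.
Folr2: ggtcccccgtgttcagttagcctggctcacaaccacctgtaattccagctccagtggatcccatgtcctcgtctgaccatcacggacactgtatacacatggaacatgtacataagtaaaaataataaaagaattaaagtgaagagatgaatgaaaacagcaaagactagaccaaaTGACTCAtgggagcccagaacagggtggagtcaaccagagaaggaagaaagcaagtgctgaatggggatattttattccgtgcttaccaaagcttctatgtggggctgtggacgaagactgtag
Slco2b1: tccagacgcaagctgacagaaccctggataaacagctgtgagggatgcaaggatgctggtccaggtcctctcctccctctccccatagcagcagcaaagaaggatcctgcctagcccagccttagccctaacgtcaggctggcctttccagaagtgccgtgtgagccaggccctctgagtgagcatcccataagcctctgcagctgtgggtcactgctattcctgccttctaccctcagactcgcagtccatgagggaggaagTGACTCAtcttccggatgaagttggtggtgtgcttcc
Mt2: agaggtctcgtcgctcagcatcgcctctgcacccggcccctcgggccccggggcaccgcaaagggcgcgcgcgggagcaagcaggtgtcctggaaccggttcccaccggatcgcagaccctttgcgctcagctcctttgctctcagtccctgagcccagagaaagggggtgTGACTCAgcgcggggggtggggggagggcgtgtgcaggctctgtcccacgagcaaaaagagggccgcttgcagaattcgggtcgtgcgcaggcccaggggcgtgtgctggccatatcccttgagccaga

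These 3 sites lay at different distances from the start, beginning at -74 in Folr2, at -79 in Mt2 and at 13 in Slco2b1, relative to the annotated start. Folr2 was not called with LPS in either genotype without a replicate block, Slco2b1 fell in LysM at 2 h, and Mt2 rose in both genotypes. With replicate numbers as a block in the fit, Folr2 was called higher at 2 h. It changed by 0.14 in LysM (limma, adjusted p = 0.0184) and 0.14 in libraries labelled FosKO (adjusted p = 0.0154). The LysM change was also called with only the groups compared in the fit (limma, adjusted p = 0.0298).

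Whether the members responded to LPS was a comparison the rule did not use, and each genotype was compared with its own 0 h libraries in limma over all 13901 genes. The rule asks for a difference at every time, which limits how far the change in 1 genotype can depart from that in the other. At 0.5 h in LysM, 1 member was called higher and 0 lower, beside 5.09% and 2.15% of all tested genes. At 1 h 10 were higher and 2 lower (background 19.2% and 16.5%). With only the groups compared in the fit, 11 were higher and 6 lower at 1 h, and the background of that fit is not given here. At 2 h 23 were called, 9 of them higher and the other 14 lower (60.8% of all tested genes were called in either direction and 30.6% higher). The 12 called at 1 h in LysM became 6, all higher, with only libraries of high Rn18s-rs5, which leaves 1 library in that group. Gm13841 and Gm8210, being 1 measurement, are counted as 2 genes throughout, and the protein-coding members alone gave 8 higher and 2 lower at that time. In libraries labelled FosKO, 0 were higher and 1 lower at 0.5 h (4.45% and 1.47%), 4 higher and 3 lower at 1 h (17.6% and 15%), and 12 higher and 7 lower at 2 h (32.6% and 29.5%). The 7 called at 1 h in libraries labelled FosKO became 11 without replicate 2 of that group and 4 with only the groups compared in the fit. The members' median SD within groups was 0.10, beside 0.07 over tested genes. The SD varied with level. Over all genes of the table its median was 0.13 at levels of 5 to 6, 0.09 at 6 to 8 and 0.04 at 10 or more. The shares of all tested genes given here were not matched to the members' levels. In 20 members (39.2%) no LPS comparison in either genotype was called, beside 23.7% of all tested genes.

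Changes of at least 2-fold at 2 h were seen in 5 members upward and 1 downward in LysM (5.43% and 2.63% of all tested genes), and likewise in 5 and 1 in libraries labelled FosKO (5.83% and 2.73%). In LysM those that rose were Mt2, Akap2, Atp2b4, Ptrf and 2010300C02Rik, and in libraries labelled FosKO Pcdh7 took the place of Ptrf. Fam83f fell in both. At 2 h, 13 members were called in both genotypes, each in the same direction, beside 49.9% of all tested genes. A further 10 were called in LysM alone (10.1% of all), 6 in libraries labelled FosKO alone (11.4%) and 22 in neither (27.8%). A call in 1 genotype alone does not show that the genotypes differ, and that difference was not tested, because the rule used it.

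Mt2, the metallothionein, was at 7.64, 7.40 and 7.40 before LPS, 8.07, 8.14 and 8.06 after 0.5 h, 8.88, 9.0 and 8.78 after 1 h, and 9.84, 9.90 and 9.78 after 2 h in LysM libraries. With the label FosKO it was at 6.83, 6.05 and 6.06 before LPS, 6.74, 6.35 and 6.03 by 0.5 h, 7.66, 7.21 and 7.28 by 1 h, and 8.52, 8.07 and 8.43 by 2 h. It rose at 2 h by 2.36 ± 0.18 (SE), adjusted p = 4.31e-10, in LysM, and by 2.03 ± 0.18 (SE), adjusted p = 4.41e-09, in libraries labelled FosKO, all 3 libraries lying above all 3 at 0 h in each. The same gene was the 1 member called at 0.5 h in LysM (0.61 ± 0.18 (SE), adjusted p = 0.0481), a call lost when any 1 of the 6 libraries was left out. At 1 h it had risen by 1.41 and 1.07.

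Akap2 was at 7.57, 7.80 and 7.33 before LPS, 7.69, 7.31 and 7.56 after 0.5 h, 8.42, 8.28 and 8.17 after 1 h, and 9.89, 9.86 and 9.74 after 2 h in LysM libraries. In those labelled FosKO it was at 5.51, 6.14 and 6.16 before LPS, 6.11, 6.12 and 6.27 by 0.5 h, 6.18, 5.83 and 6.51 by 1 h, and 7.67, 7.94 and 8.0 by 2 h. It rose by 0.73 ± 0.17 (SE), adjusted p = 0.00192, at 1 h in LysM, whereas at 1 h in libraries labelled FosKO the change was 0.23 ± 0.17 (SE), adjusted p = 0.325. By 2 h the changes were 2.26 and 1.93. Atp2b4 changed by 1.68 and 1.52 at 2 h, Ptrf by 1.25 and 0.88, Col18a1 by 0.71 and 0.62, and Pcdh7 by 0.69 and 1.12, the LysM value first and all called. The mean level after 2 h in libraries labelled FosKO was below the resting LysM mean for Col18a1, Ptrf and Pcdh7, and above it for Mt2, Akap2 and Atp2b4.

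Fam83f, of the FAM83 family of scaffold proteins, was at 8.04, 8.02 and 7.89 before LPS, 8.06, 7.93 and 7.99 after 0.5 h, 7.58, 7.57 and 7.62 after 1 h, and 6.19, 6.24 and 6.38 after 2 h in LysM libraries. The libraries labelled FosKO held 6.76, 6.66 and 6.71 before LPS, 6.65, 6.51 and 6.88 by 0.5 h, 6.39, 6.34 and 6.24 by 1 h, and 5.31, 5.77 and 5.19 by 2 h. At 2 h it changed by -1.71 ± 0.11 (SE), adjusted p = 2.13e-11, in LysM, and by -1.29 ± 0.11 (SE), adjusted p = 1.96e-09, in libraries labelled FosKO, with no overlap with 0 h in either. Slco2b1 fell in LysM at 2 h (-0.87 ± 0.14 (SE), adjusted p = 1.89e-05), and its change in libraries labelled FosKO was -0.18 ± 0.14 (SE), adjusted p = 0.296. Without FosKO replicate 1 at 2 h that change was -0.37 and was called (limma, adjusted p = 0.0178). Cspg4 likewise fell in LysM (-0.57 ± 0.15 (SE), adjusted p = 0.0019), with -0.20 ± 0.15 (SE), adjusted p = 0.239, in libraries labelled FosKO. Without FosKO replicate 2 at 0 h the latter was -0.38 and was called (limma, adjusted p = 0.0274). Gpr183 rose in LysM at 1 h by 0.52 ± 0.11 (SE), adjusted p = 0.000897, and then fell at 2 h to -0.40 in LysM and -0.90 in libraries labelled FosKO relative to 0 h.

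Pcp4l1 was at 11.64, 11.68 and 11.67 before LPS, 11.59, 11.59 and 11.60 after 0.5 h, 11.53, 11.55 and 11.51 after 1 h, and 11.44, 11.44 and 11.44 after 2 h in LysM libraries. Those labelled FosKO were at 10.91, 10.73 and 10.75 before LPS, 10.68, 10.62 and 10.61 by 0.5 h, 10.70, 10.59 and 10.58 by 1 h, and 10.69, 10.53 and 10.56 by 2 h. It was the 1 member called at 0.5 h in libraries labelled FosKO (-0.16 ± 0.04 (SE), limma adjusted p = 0.0297). With a replicate block, for the comparison in which replicate numbers paired the libraries, 3 members were called lower. Without the block 1.47% of all tested genes were called lower. The share with the block is not given here, so whether 3 members exceed the general rate cannot be read from that count. This call of Pcp4l1 was lost with no filter (adjusted p = 0.051), with only the groups compared (0.295), and without FosKO replicate 1 at 0 h (0.183) or replicate 2 (0.078) or 3 (0.129) at 0.5 h. At 1 h it fell by 0.14 in LysM and 0.17 in libraries labelled FosKO, and at 2 h it fell by 0.22 and 0.20, all called. The LysM call at 1 h was lost without the libraries of low Rn18s-rs5 (adjusted p = 0.148) and without LysM replicate 2 (0.0604) or 3 (0.0541) at 0 h or replicate 3 (0.0624) at 1 h, and the FosKO call at 1 h with only the groups compared (0.0811). At 2 h Tm4sf19 fell by 0.71 and 0.63, its neighbour Gm20056 fell by 0.61 and 0.63, and Plxdc1 fell by 0.52 and 0.55, in LysM and in libraries labelled FosKO, all called. Nptx1 fell in LysM at 2 h (-0.26 ± 0.07 (SE), adjusted p = 0.00543). Smpd3 fell in libraries labelled FosKO (-0.25 ± 0.10 (SE), adjusted p = 0.0309), a call lost under quantile normalisation (adjusted p = 0.178), without the libraries of low Rn18s-rs5 (0.0523), with only the groups compared in the fit (0.124), and without replicate 1 at 0 h (0.192), replicate 1 at 2 h (0.156) or replicate 2 at 2 h (0.0538) of libraries labelled FosKO.

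**Figure D4:**
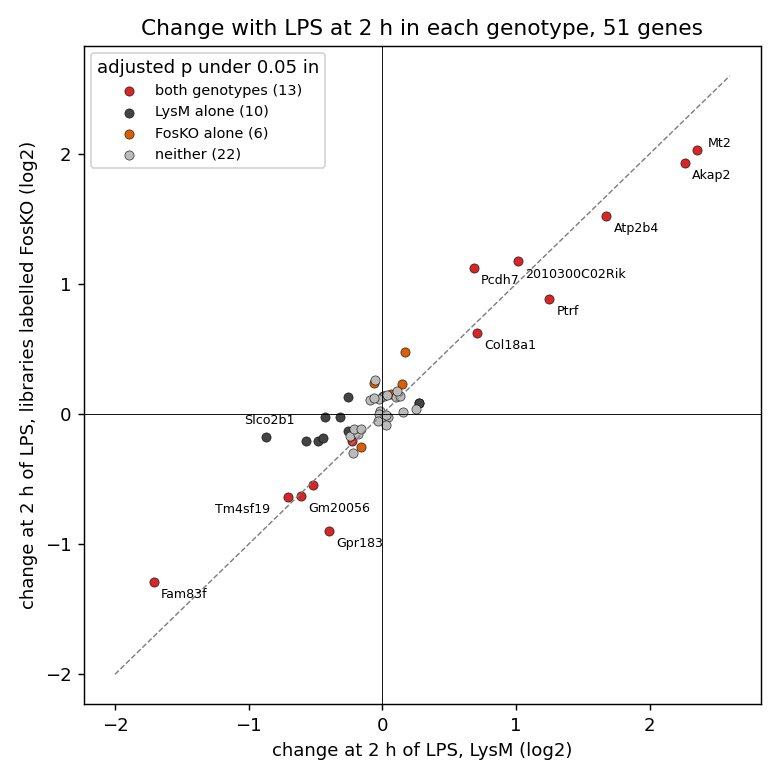
Change from 0 h to 2 h of LPS in LysM (horizontal) against the change in libraries labelled FosKO (vertical), both log2, for the 51 genes, coloured by the genotype in which limma's adjusted p was under 0.05. The dashed line marks equal change. Mt2, Akap2 and Atp2b4 rise by 1.5 or more on both axes, Fam83f lies at -1.71 and -1.29, and the 22 grey points lie near 0.

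The 2 genotypes share no control library in these LPS comparisons, since each was set against its own 0 h group, but the 3 times within a genotype share theirs. None of the genes in lists of textbook AP-1 targets and of ERK feedback was a member, and Fosl1 and Dusp5 on them were left out by name. Neither met the rule in any case, since Fosl1 had a mean of 4.52 in unstimulated LysM libraries and Dusp5 differed by -0.70 at 2 h. Of 21 tested AP-1 linked genes, 9 were called lower at 0 h and 5 higher (15.9% and 19.5% of all tested genes). Among them Plau (-0.60) and Timp1 (-0.68) were lower and Mmp14 (1.67) and Mmp9 (0.60) higher. At 0.5 h 11 were lower and 6 higher (19.7% and 21.2%), and at 1 h 11 and 5 (15.9% and 18%). At 2 h 8 were lower and 8 higher (20.3% and 24.4%). Of 10 tested ERK feedback genes, 3 were called lower at 0 h and 0 higher, 5 and 0 at 0.5 h, and 4 and 2 at 1 h. At 2 h 3 were lower and 6 higher, and the shares of all genes at the 4 times are those just given.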

How the data were processed

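RNA was sequenced from 24 libraries of mouse BMDMs in 8 groups of 3. Per the methods, libraries were strand-specific and single-end. The submitters' processing notes name STAR 2.5.2a, RSEM 1.2.31, DESeq2 1.16.1 and genome build GRCm38. The deposited table holds normalised values that the authors placed on a log2 scale, from -2.22 to 19.39. The normalisation method is not given in the sources used here, counts were not analysed here, and the methods state a typical sequencing yield but no depth per library.

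The members and gene lists were chosen with earlier results of these data known. A gene was tested if its value, taken out of log2, reached 5 in 3 or more libraries. This left 13901 genes, all 51 members among them. limma 3.58.1 (R 4.3.3) fitted 8 group means to all 24 libraries, with a trended prior variance, 16 residual degrees of freedom and Benjamini-Hochberg adjustment over all tested genes. A call is an adjusted p under 0.05. P-values measure the spread between libraries, and how many animals these represent was not given. On simulated data for LPS in LysM at 1 h, over 13901 genes, 81% of changes of 0.5 and 96% of changes of 1 (log2) were recovered, with 10 false calls among 187.

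Same-numbered libraries had r over 0.1 in all 3 pairs for LPS at 0.5 h in FosKO (0.13 to 0.27), in 2 of 3 at 1 h in FosKO (0.08 to 0.24), in 1 of 3 at 0.5 h in LysM (0.01 to 0.13) and in 0 of 3 in the other LPS comparisons. The numbers were taken to pair libraries in the first of these, a pairing that comes from the data and not from the labels. The block is given beside that result. Every member is named. All values are given for Nptx1, Cspg4 and Smpd3, for the 12 members of lowest mean difference, and for the called members that, in LysM at each time, were among the 2 that rose most or the 2 that fell most. Identifiers were matched to GENCODE M21 (99.7% found). Near copies were transcripts at least 95% identical over at least 80% of a member's length (blastn 2.17.0). Promoter windows came from RefSeq. Figures were drawn with matplotlib 3.10.9 in Python 3.11.15. Alternatives were other scalings, a pseudocount, other filters, fewer libraries in the fit, a replicate block, a term for Rn18s-rs5, another variance prior and each library left out.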

Additional observations from a re-analysis of the deposited data

Results flagged for a closer look

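In Nptx1, every LysM library at 2 h of LPS lay on one side of its 0 h level and every library labelled FosKO on the other. The change was -0.26 in LysM (limma, adjusted p = 0.00543) and 0.13 in libraries labelled FosKO (adjusted p = 0.137), and FosKO minus LysM was 0.39. Under quantile normalisation the change in libraries labelled FosKO was 0.25 and was called (limma, adjusted p = 0.00721), so its size depended on the scaling. In Psd3 the same pattern held only against the 0 h group means, and its libraries at 2 h overlapped those at 0 h in both genotypes. The change in Psd3 was -0.06 in LysM (limma, adjusted p = 0.56) and 0.24 in libraries labelled FosKO (adjusted p = 0.0162), a difference of 0.30. These differences were not tested, because the choice of the genes used the genotype contrast at each time.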

How the results depend on the processing

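The number of members moved with the limit, from 51 at -0.8 to 106 at -0.6 and 30 at -1, and stayed at 49 to 53 with each library left out. The median genotype difference kept its size under every alternative run, and with each library left out it was -1.30 to -1.16 at 0 h, -1.42 to -1.33 at 0.5 h, -1.35 to -1.27 at 1 h and -1.16 to -1.09 at 2 h. Counts at 0.5 h rested on single genes. In LysM at 0.5 h the count of 1 became 0 with no filter, with a term for Rn18s-rs5, with only libraries of high Rn18s-rs5 or with no variance trend, and 2 with only the groups compared, and it was 0 to 0 with each library left out. In FosKO at 0.5 h the count of 1 became 2 under quantile normalisation or a term for Rn18s-rs5, 0 with no filter or with only the groups compared, and 3 with the replicate block, and was 0 to 2 with each library left out. At 1 h the LysM count of 12 became 6 with only libraries of high Rn18s-rs5, which leaves 1 library in that group, assumed to vary like the other groups (10 to 11 with each library left out), and the FosKO count of 7 became 4 with only the groups compared (5 to 11, the latter without replicate 2 at 1 h). At 2 h the counts of 23 and 19 were 20 to 22 and 18 to 20 with each library left out. With the replicate block the other counts were 13 and 24 in LysM at 1 and 2 h, and 7 and 21 in FosKO, all within 1.5 times of those given. Restricting the counts to the 45 protein-coding members, an alternative chosen after seeing the data, gave 10 and 20 in LysM and 7 and 18 in FosKO at 1 and 2 h. For the members named with all values, 1486 of 1536 comparisons under the alternatives stayed called or stayed not called. A further 38 lost a call, 12 gained a call, and 0 called changes reversed direction. Some small changes that were not called did change sign, such as that of Col18a1 in LysM at 0.5 h under quantile normalisation. Except where the alternative uses fewer libraries or genes, the cause of these changes was not tested. The depth of each library is not given in the sources used here, so no limit from it was computed.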
